A study of Mus musculus with 4 samples.

Results

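The response of wild-type (WT) CD4+ T cells to stimulation through the T cell receptor (TCR) was examined in 2 of the 4 small RNA libraries of this study. The stimulated cells had received anti-CD3, an antibody to a part of the TCR complex, for 48 h, and the unstimulated cells, which the labels call naive, were left unactivated. Both libraries came from C57BL/6 WT mice. The remaining 2 libraries hold the same states of Cbl-b-/- cells, which lack a ubiquitin ligase known to dampen TCR signals, and serve only for values set side by side. The labels do not say whether a library holds 1 mouse or a pool, how pure the CD4+ cells were, or how long the unstimulated cells were cultured. There was 1 library a side, so no difference has a replicate check and no p-value is given.

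MicroRNAs are short RNAs, cut from hairpin precursors, that guide Argonaute proteins to messenger RNAs. Positions 2 to 8, the seed, pair first with a target, and miRNAs with the same seed share many targets. Either arm of a hairpin (5p or 3p) can be loaded, although usually 1 arm is far more abundant. T cell activation is known to reshape the miRNA pool, with miR-155 and miR-21 among the classical induced miRNAs and miR-181 and miR-150 prominent in developing or resting cells.

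Mature sequences were matched by name to RefSeq (GRCm38.p6) for 905 of the 1091 listed miRNAs, which held 94.0% of the reads of stimulated and 89.7% of those of unstimulated cells. The sequences shown carry the main results and are written 5′ to 3′, with the seed in capitals. Among the highest ratios after stimulation, miR-132-3p and miR-212-3p share the seed AACAGUC, and miR-449c-5p, miR-449a-5p and miR-34a-5p the seed GGCAGUG.
miR-210-3p: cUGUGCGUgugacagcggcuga
miR-298-5p: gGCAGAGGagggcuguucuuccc
miR-155-5p: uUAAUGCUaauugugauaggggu
miR-155-3p: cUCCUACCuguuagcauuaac
miR-31-5p: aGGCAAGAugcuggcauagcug
miR-132-3p: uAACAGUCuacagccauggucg
miR-212-3p: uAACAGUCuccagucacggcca
miR-449c-5p: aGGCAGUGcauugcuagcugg
miR-449a-5p: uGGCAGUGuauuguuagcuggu
miR-34a-5p: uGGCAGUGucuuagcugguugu
miR-18a-5p: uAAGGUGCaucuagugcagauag
miR-21a-5p: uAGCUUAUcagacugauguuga

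Several seed families had a lower sum in stimulated cells, although miR-181d-5p, miR-146b-5p and miR-26b-5p did not pass by library sums. The 4 miR-181 members share ACAUUCA, the miR-146 pair GAGAACU, the miR-10 pair ACCCUGU and the miR-26 pair UCAAGUA, so that members of a family differ only outside the capitals. The last 3 sequences are single miRNAs with low ratios.
miR-181a-5p: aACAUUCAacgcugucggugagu
miR-181b-5p: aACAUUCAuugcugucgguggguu
miR-181c-5p: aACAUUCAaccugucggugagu
miR-181d-5p: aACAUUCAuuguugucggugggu
miR-146a-5p: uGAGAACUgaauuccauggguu
miR-146b-5p: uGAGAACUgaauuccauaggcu
miR-10a-5p: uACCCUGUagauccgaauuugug
miR-10b-5p: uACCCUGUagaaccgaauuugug
miR-26a-5p: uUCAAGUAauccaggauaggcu
miR-26b-5p: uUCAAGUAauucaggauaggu
miR-223-3p: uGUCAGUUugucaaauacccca
miR-150-3p: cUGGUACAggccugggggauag
miR-211-5p: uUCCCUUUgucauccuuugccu

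The counted reads came to 13074598 in the stimulated and 15436447 in the unstimulated library. At least 1 read was found for 991 miRNAs in stimulated and 899 in unstimulated cells, 829 of them in both. Levels are counts per 1000000 counted reads of a library (CPM), so each is a share of the miRNA pool and not an amount per cell. Fewer cells of a type and less RNA per cell cannot be told apart in such bulk libraries. Ratios are stimulated over unstimulated on the log2 scale, with 95% exact Clopper-Pearson intervals that cover counting error only. A level of 50 CPM rested on 654 reads in stimulated cells (46.3 to 54.0 CPM) and on 772 reads in unstimulated cells (46.5 to 53.7 CPM). A miRNA was called higher or lower when it differed at least 2-fold, averaged 50 CPM or more over the pair, and had an interval that left out equality. Because a few miRNAs hold most reads, ratios were also computed with TMM factors, which scale by the bulk of miRNAs and moved every log2 ratio by -0.61.

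Of 220 miRNAs averaging 50 CPM or more, 78 (35.5%) were higher and 31 (14.1%) lower in stimulated than in unstimulated cells by library sums. With TMM factors 52 (23.6%) were higher and 66 (30.0%) lower, so the direction that holds the majority depends on the scaling. With both scalings 52 were higher (23.6%) and 31 lower (14.1%), and counts of list members given as past both scalings are to be read against these shares. The median log2 ratio of the 220 was 0.40 by library sums and -0.21 with TMM factors, and single ratios lay between -2.96 and 6.54. The level was a mean over the pair, so a miRNA rare in 1 library could enter through the other, which favours large ratios. An example is miR-6539, which had the highest ratio, at 127 CPM in stimulated and 1.36 CPM in unstimulated cells. How many of the calls rest on a level reached in 1 library only was not counted. Nearest to the limit on the higher side were let-7a-1-3p inside (1.00) and miR-328-3p outside (0.99). On the lower side they were miR-467e-5p inside (-1.06) and miR-378b outside, at 45.4 CPM in stimulated and 90.5 CPM in unstimulated cells.

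**Figure D1:**
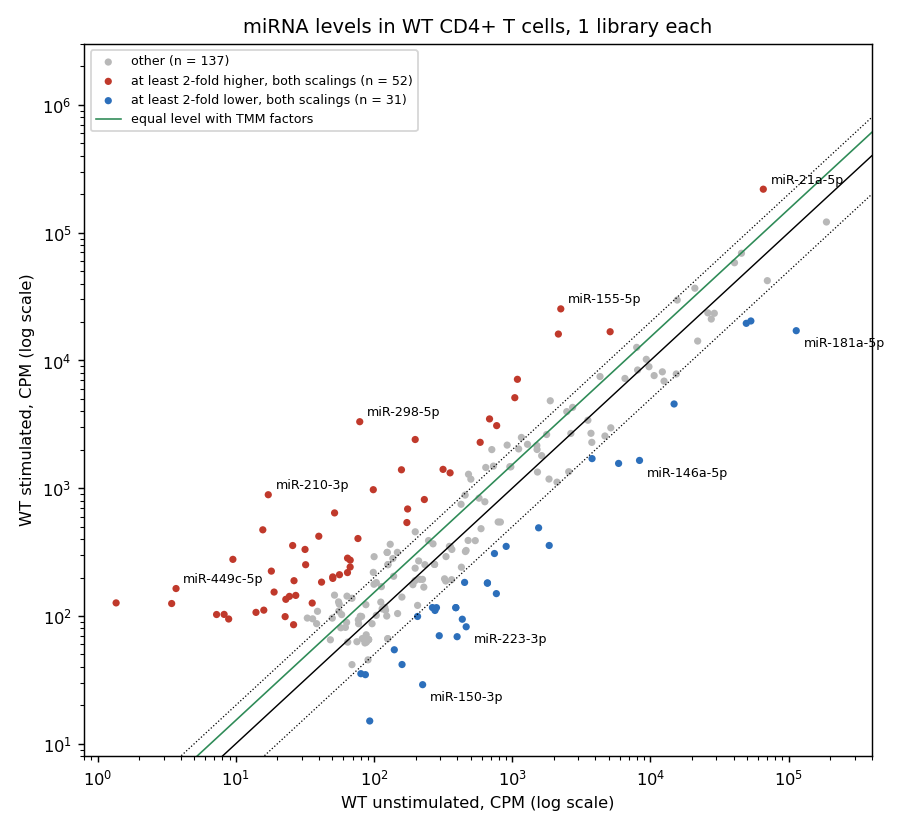
Levels of 220 miRNAs averaging 50 CPM or more in WT stimulated (y axis) and WT unstimulated cells (x axis), in CPM on log scales, 1 library each. Red and blue points are the 52 higher and 31 lower miRNAs with both scalings. The black line marks equal levels by library sums, the dotted lines the 2-fold limits around it and the green line equal levels with TMM factors.

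The plot of levels shows that the most abundant miRNAs changed places. miR-21a-5p, a miRNA induced in many activated and growing cells, stood at 219041 CPM in stimulated and 65605 CPM in unstimulated cells, 3.34-fold higher in stimulated cells (log2 1.74, 1.13 with TMM factors). It ranked 1 in the stimulated library and 4 in the unstimulated library. miR-142a-5p, known from all blood cell lineages, stood at 121285 CPM in stimulated and 187887 CPM in unstimulated cells (log2 -0.63, -1.24 with TMM factors) and so passed the limit with TMM factors only.

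miR-27b-3p stood at 69037 CPM in stimulated and 45593 CPM in unstimulated cells, and miR-191-5p at 58179 CPM in stimulated and 40605 CPM in unstimulated cells. Their log2 ratios of 0.60 and 0.52 by library sums became -0.01 and -0.09 with TMM factors, so neither has a direction that holds. miR-16-5p stood at 42121 CPM in stimulated and 70179.6 CPM in unstimulated cells (log2 -0.74, -1.35 with TMM factors) and passed as lower with TMM factors only. The 10 most abundant miRNAs held 64.8% of the reads of stimulated and 68.3% of those of unstimulated cells, and 6 were common to both. In the list of T cell and blood cell identity miRNAs all 6 members averaged 50 CPM or more, and they summed to 209139 CPM in stimulated and 394403 CPM in unstimulated cells. The members were not uniform, as 3 were lower and 1, miR-155-5p, higher with both scalings. A large part of the difference in the sum was miR-181a-5p, at 17100 CPM in stimulated and 113595 CPM in unstimulated cells.

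The TCR-induced list, of miRNAs known to rise in activated lymphocytes, had the highest median of the 22 lists. The lists were chosen with earlier results of these data known, so this rank is not independent evidence. Of the 17 TCR-induced members 15 averaged 50 CPM or more, of which 13 were higher and 0 lower with both scalings. The 13 include both arms of miR-155, miR-21a, miR-132 and miR-212 and the cluster of miR-182, miR-96 and miR-183. They are therefore not independent of one another. Some, such as miR-132-5p at 103 CPM in stimulated and 7.26 CPM in unstimulated cells, passed the 50 CPM level through the stimulated library only. The median log2 ratio of the 16 TCR-induced members at 10 CPM or more was 3.55 (2.94 with TMM factors), against 0.53 (-0.08) over all 332 miRNAs at that level. miR-155-5p, needed for full T cell responses in mice, had 331269 reads in stimulated and 34677 reads in unstimulated cells, or 25337 CPM (stimulated) and 2246 CPM (unstimulated). That is 11.3-fold higher in stimulated cells (log2 3.50, interval 3.48 to 3.51). Its partner arm miR-155-3p stood at 472 CPM in stimulated and 15.7 CPM in unstimulated cells, 30.1-fold higher. The arms lie in an exon of Mir155hg, miR-155-5p at chr16:84714143-84714165 on the plus strand (GRCm38.p6).

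miR-210-3p, the miRNA classically induced by hypoxia-inducible factors, had 11625 reads in stimulated and 265 reads in unstimulated cells, or 889 CPM (stimulated) and 17.2 CPM (unstimulated). Its 51.8-fold ratio (log2 5.69, interval 5.52 to 5.88) ranked 2 among the 220. It lies at chr7:141221407-141221428 on the minus strand (GRCm38.p6). miR-31-5p, known from activated T cells, stood at 641 CPM in stimulated and 51.8 CPM in unstimulated cells (log2 3.63). miR-21a-3p, the less abundant arm of its hairpin, had a higher ratio than miR-21a-5p, at 7119 CPM in stimulated and 1091 CPM in unstimulated cells (log2 2.71).

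Both measured members that did not pass were miR-221-3p and miR-222-3p, which share a seed and a cluster on the X chromosome and are known in human cells to restrain the cell cycle inhibitor p27. miR-221-3p stood at 193 CPM in stimulated and 224 CPM in unstimulated cells (log2 -0.21). miR-222-3p stood at 99.0 CPM in stimulated and 81.3 CPM in unstimulated cells, with a log2 ratio of 0.28 that became -0.32 with TMM factors. miR-31-3p, at 60.4 CPM in stimulated and 2.40 CPM in unstimulated cells, averaged under 50 CPM, and miR-214-3p had 0 reads in stimulated and 1 read in unstimulated cells.

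**Figure D2:**
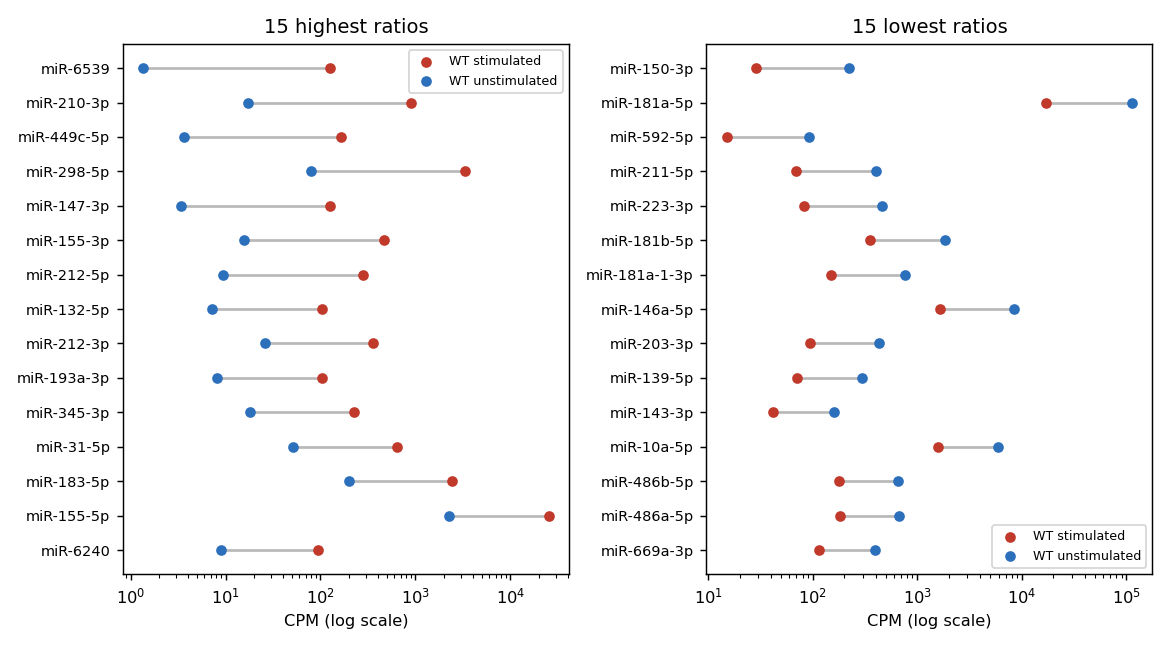
Levels in CPM (log scale) of the 15 miRNAs with the highest (left) and the 15 with the lowest ratios (right) among those past both scalings, red for the WT stimulated and blue for the WT unstimulated library. Most of the highest ratios start from unstimulated levels under 100 CPM, such as 3.69 CPM for miR-449c-5p, while miR-181a-5p stands at 17100.1 CPM in stimulated and 113595 CPM in unstimulated cells.

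Several of the highest ratios belonged to miRNAs encoded together. miR-132 and miR-212, a pair that responds to the transcription factor CREB in neurons, lie at chr11:75173403-75173744 on the plus strand, in an intron of 1700016P03Rik, and all 4 of their mature miRNAs were higher with both scalings. miR-212-5p stood at 277 CPM in stimulated and 9.52 CPM in unstimulated cells (log2 4.86) and miR-132-5p at 103 CPM in stimulated and 7.26 CPM in unstimulated cells (3.82). The arms with a common seed were miR-212-3p, at 356 CPM in stimulated and 25.8 CPM in unstimulated cells (3.79), and miR-132-3p, at 974 CPM in stimulated and 98.8 CPM in unstimulated cells (3.30). Summed over that seed, the pair held 1329.6 CPM in stimulated and 125 CPM in unstimulated cells, 10.7-fold higher in stimulated cells (interval of log2 3.35 to 3.48).

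The cluster of miR-182, miR-96 and miR-183 (chr6:30165923-30169732, minus strand) is known in helper T cells for miR-182, which is induced by interleukin 2 and limits Foxo1. Its 5 measured mature miRNAs all had log2 ratios above 2. miR-182-5p stood at 16095 CPM in stimulated and 2158 CPM in unstimulated cells (log2 2.90), and miR-183-5p at 2405 CPM in stimulated and 199 CPM in unstimulated cells (3.60). miR-96-5p had 1395 reads in stimulated and 216 reads in unstimulated cells (2.93). The guide arms of the cluster thus had similar ratios at very different levels.

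miR-298 and miR-296 are neighbours on chromosome 2 (chr2:174267058-174267575, minus strand), in the imprinted Gnas region. miR-298-5p had 43357 reads in stimulated and 1217 reads in unstimulated cells, or 3316 CPM (stimulated) and 78.8 CPM (unstimulated), 42.1-fold higher in stimulated cells. miR-296-5p stood at 142 CPM in stimulated and 24.4 CPM in unstimulated cells (log2 2.54), so the members of this cluster differed in size but not in direction.

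The seed shared by miR-34 and miR-449, known as targets of p53 (miR-34a) and as miRNAs of multiciliated cells (miR-449), held 476 CPM in stimulated and 50.1 CPM in unstimulated cells (9.50-fold, log2 interval 3.14 to 3.36). miR-449c-5p, in an intron of Cdc20b on chromosome 13, stood at 164 CPM in stimulated and 3.69 CPM in unstimulated cells, 44.4-fold higher in stimulated cells. Its neighbour miR-449a-5p had 778 reads in stimulated and 223 reads in unstimulated cells (log2 2.04) and averaged under 50 CPM. miR-34a-5p, on chromosome 4, stood at 252 CPM in stimulated and 32.0 CPM in unstimulated cells (log2 2.98). Of these, miR-449c-5p and miR-34a-5p passed with both scalings.

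miR-147-3p, an inducible miRNA of activated immune cells, had 1636 reads in stimulated and 53 reads in unstimulated cells (log2 5.19). miR-193a-3p stood at 103 CPM in stimulated and 8.23 CPM in unstimulated cells (3.64), and miR-345-3p at 224 CPM in stimulated and 18.1 CPM in unstimulated cells (3.63). The highest ratio of the 220 was that of miR-6539, with 1655 reads in stimulated and 21 reads in unstimulated cells (log2 6.54, interval 5.92 to 7.24). miR-6240 stood at 94.7 CPM in stimulated and 8.88 CPM in unstimulated cells (log2 3.42). No mature sequence was matched to miR-6539, which stood at 1.36 CPM in unstimulated cells, and that of miR-6240 is 26 bases long. Whether reads of either came from repeats or ribosomal RNA was not tested. In the Cbl-b-/- pair the log2 ratios were 4.88 for miR-6539 and 6.53 for miR-6240, and whether they differ between genotypes was not tested.

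The miR-17-92 cluster and its paralogs, which promote lymphocyte proliferation and are activated by MYC and E2F factors, had log2 ratios above 0 in 19 of 19 members by library sums and in 16 with TMM factors. Of all 332 miRNAs at 10 CPM or more, 207 were above 0 by library sums and 158 with TMM factors. The list members include both arms of some hairpins. Of 17 members averaging 50 CPM or more, 11 were higher by library sums and 8 with both scalings. The median was 1.55 (0.94 with TMM factors). In the miR-17-92 cluster itself (chr14:115043684-115044459, plus strand, in Mir17hg) the 8 measured miRNAs of that locus alone lay between 1.82 and 3.39. miR-92a-3p and miR-19b-3p, which also have a copy on the X chromosome, are not in that range. miR-92a-3p, the most abundant of the list, stood at 36760 CPM in stimulated and 20973 CPM in unstimulated cells (log2 0.81, 0.20 with TMM factors). miR-19b-3p stood at 4836 CPM in stimulated and 1885 CPM in unstimulated cells (1.36, 0.75 with TMM factors). Neither passed with both scalings. miR-18a-5p stood at 1394 CPM in stimulated and 158 CPM in unstimulated cells (log2 3.14), miR-17-5p at 3487 CPM in stimulated and 685 CPM in unstimulated cells (2.35) and miR-19a-3p at 815 CPM in stimulated and 231 CPM in unstimulated cells (1.82).

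The paralogous clusters had lower ratios. In the miR-106b-25 cluster, inside the DNA replication gene Mcm7 on chromosome 5, the 6 mature miRNAs lay between 0.06 and 2.12, and 3 of them were above 0 with TMM factors. Its abundant members were nearly equal by library sums, miR-93-5p at 10207 CPM in stimulated and 9338 CPM in unstimulated cells and miR-25-3p at 8419 CPM in stimulated and 8077 CPM in unstimulated cells. In the miR-106a-363 cluster on the X chromosome the 6 lay between 0.65 and 2.66. miR-93-5p, miR-17-5p, miR-20a-5p, miR-106b-5p, miR-20b-5p and miR-106a-5p share a seed, whose sum stood at 18940.1 CPM in stimulated and 11834 CPM in unstimulated cells (log2 0.68, 0.07 with TMM factors). The sum did not pass the rule although miR-17-5p did. Near-identical members such as miR-17-5p and miR-106a-5p can exchange reads, so their single values are uncertain.

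Beside the TCR-induced list, the miR-17-92 list, the miR-34 and miR-449 family (2.98, 2.37 with TMM factors) and a marker list of 2 members given with the other markers, lists with a median above 1 by library sums were the miR-130 and miR-301 family (1.97), the miR-148 and miR-152 family (1.32) and the miR-23, miR-27 and miR-24 clusters (1.24). With TMM factors the last 3 medians were 1.36, 0.71 and 0.63. In the miR-130 and miR-301 list 3 of 4 members averaging 50 CPM were higher with both scalings. In the miR-148 and miR-152 list 2 of 4 were, namely miR-148a-5p and miR-148b-5p. In the miR-23, miR-27 and miR-24 list 3 of 8 were, namely miR-24-2-5p, miR-27a-5p and miR-27b-5p. All of these members of the latter lists are the less abundant arms. The more abundant arms averaging 50 CPM there lay between -0.04 (miR-24-3p) and 0.63 (miR-23b-3p) with TMM factors, and none passed with both scalings. miR-301a-3p stood at 5111 CPM in stimulated and 1044 CPM in unstimulated cells (log2 2.29) and miR-301b-3p at 421 CPM in stimulated and 39.8 CPM in unstimulated cells (3.40). miR-130b-3p stood at 1489 CPM in stimulated and 731 CPM in unstimulated cells (1.03, 0.42 with TMM factors), and so passed by library sums only.

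**Figure D3:**
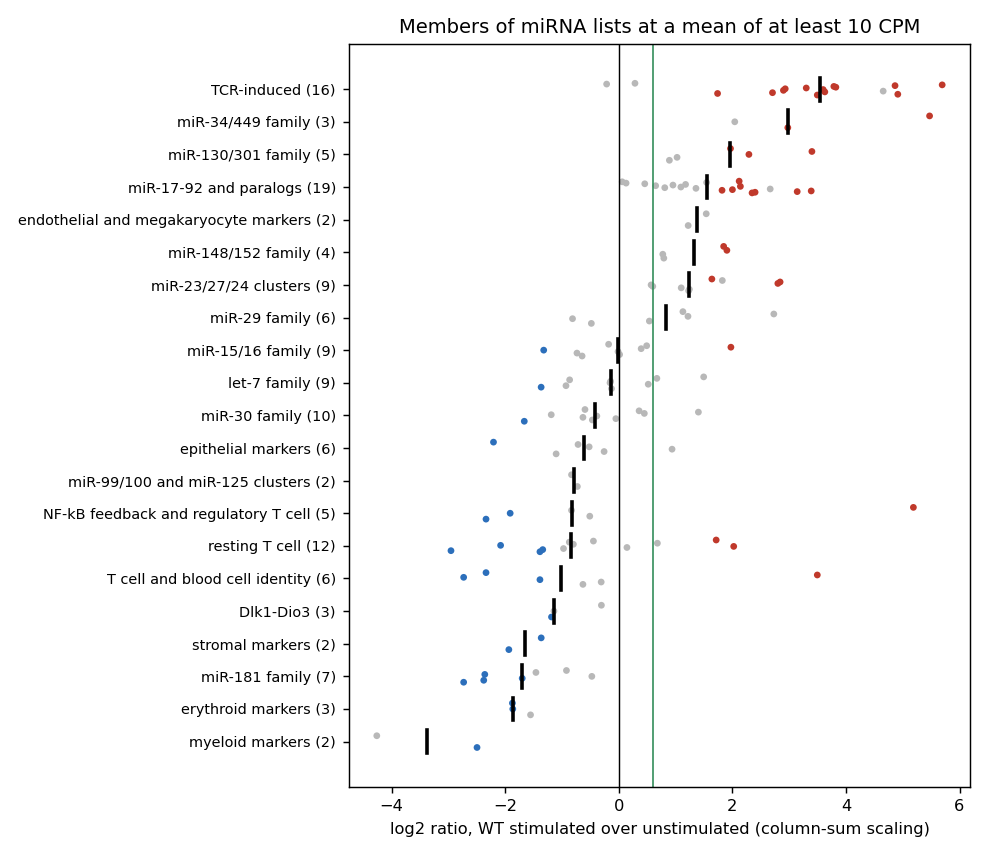
Log2 ratios of stimulated over unstimulated WT cells by library sums for list members averaging 10 CPM or more (number in brackets), each point 1 miRNA. Black bars are medians, the black line is 0, the green line is the zero of TMM scaling, and red and blue points are past both scalings. The TCR-induced list has a median of 3.55 and the myeloid markers, with 2 members, -3.38.

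The plot of lists places the miR-181 family, known to raise TCR sensitivity in thymocytes, near the lower end. Of 6 members averaging 50 CPM or more, 4 were lower and 0 higher with both scalings, and the median of 7 was -1.70 (-2.31 with TMM factors). miR-181a-5p had 223577 reads in stimulated and 1753510 reads in unstimulated cells, or 17100.1 CPM (stimulated) and 113595 CPM (unstimulated). It was 6.64-fold lower in stimulated cells (log2 -2.73, interval -2.74 to -2.73).

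miR-181b-5p stood at 356 CPM in stimulated and 1852 CPM in unstimulated cells (log2 -2.38) and miR-181c-5p at 4564 CPM in stimulated and 14837 CPM in unstimulated cells (-1.70). miR-181d-5p stood at 389 CPM in stimulated and 540.2 CPM in unstimulated cells (-0.47) and passed with TMM factors only. The lower ratios belonged to miR-181a-5p and miR-181b-5p, encoded on chromosomes 1 and 2, and the others to the pair in an intron of Nanos3 on chromosome 8. Over the common seed the family held 22409 CPM in stimulated and 130825 CPM in unstimulated cells, 5.84-fold lower in stimulated cells.

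The miR-146 seed, which restrains NF-kB signalling through Traf6 and Irak1, held 1975 CPM in stimulated and 8806 CPM in unstimulated cells (4.46-fold lower in stimulated cells). Most of it was miR-146a-5p, at 1649.8 CPM in stimulated and 8342 CPM in unstimulated cells (log2 -2.34). miR-146b-5p, from another chromosome, stood at 326 CPM in stimulated and 464 CPM in unstimulated cells (-0.51). The miR-10 seed held 1618 CPM in stimulated and 6027 CPM in unstimulated cells (log2 -1.90), mainly miR-10a-5p, which is known from regulatory T cells and lies among the Hox genes, at 1563 CPM in stimulated and 5887 CPM in unstimulated cells. Among 5 measured miRNAs listed for NF-kB feedback or regulatory T cells, 2 were lower and 1, miR-147-3p, higher with both scalings.

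Of 12 resting T cell miRNAs averaging 50 CPM or more, 4 were lower and 2 higher with both scalings, and their median was -0.84 (-1.44 with TMM factors). miR-150-5p, abundant in mature lymphocytes and a repressor of Myb, stood at 20371 CPM in stimulated and 53330 CPM in unstimulated cells (log2 -1.39). Its partner arm miR-150-3p had the lowest ratio of the 220, at 29.0 CPM in stimulated and 225 CPM in unstimulated cells (-2.96). miR-26a-5p stood at 19526 CPM in stimulated and 49406 CPM in unstimulated cells (-1.34), and miR-139-5p, in an intron of Pde2a, at 70.1 CPM in stimulated and 296 CPM in unstimulated cells (-2.08).

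The list was not uniform. The higher members were miR-186-5p, at 16782 CPM in stimulated and 5112 CPM in unstimulated cells (log2 1.71), and miR-342-5p, at 273 CPM in stimulated and 67.2 CPM in unstimulated cells (2.02). miR-342-3p, the abundant arm of the last hairpin, stood at 7229 CPM in stimulated and 6543 CPM in unstimulated cells, with a ratio of 0.14 that became -0.47 with TMM factors. Outside the list, low ratios were found for miR-592-5p, at 15.1 CPM in stimulated and 93.1 CPM in unstimulated cells (-2.63), and miR-211-5p, in an intron of Trpm1, at 68.8 CPM in stimulated and 399 CPM in unstimulated cells (-2.54).

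The let-7, miR-15 and miR-16, miR-29 and miR-30 lists held members on both sides. The let-7 seed, known for restraining growth genes, held 58004 CPM in stimulated and 62103 CPM in unstimulated cells (log2 -0.10, -0.71 with TMM factors). Its members ran between let-7b-5p, at 350.5 CPM in stimulated and 904 CPM in unstimulated cells (-1.37), and miR-98-5p, at 2006 CPM in stimulated and 712 CPM in unstimulated cells (1.49), which passed by library sums only. The miR-16 seed, known for restraining cell cycle genes, held 46117 CPM in stimulated and 74977 CPM in unstimulated cells (-0.70, -1.31 with TMM factors).

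In the miR-29 family, which is known to limit interferon-gamma production in mouse T cells, the mature guides differed. miR-29a-3p stood at 7613 CPM in stimulated and 10643 CPM in unstimulated cells (log2 -0.48) and miR-29c-3p at 188 CPM in stimulated and 330.3 CPM in unstimulated cells (-0.81). miR-29b-3p stood at 836 CPM in stimulated and 575 CPM in unstimulated cells (0.54, -0.07 with TMM factors). None of these 3 guides was past both scalings. In the miR-30 list, with a median of -0.43, 1 of 8 members averaging 50 CPM or more was lower and 0 higher with both scalings. The lower member was miR-30a-5p, at 489.8 CPM in stimulated and 1552 CPM in unstimulated cells (-1.66, -2.27 with TMM factors). The most abundant, miR-30e-5p, stood at 21093 CPM in stimulated and 27574 CPM in unstimulated cells (-0.39).

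Grouped by seed, 132 families summed to a mean of 50 CPM or more. By library sums 51 (38.6%) were higher and 17 (12.9%) lower, and with TMM factors 40 (30.3%) were higher and 29 (22.0%) lower. With both scalings 40 were higher and 17 lower. Of 33 such families with 2 or more members at 10 CPM, 24 had all those members on the same side of 0 by library sums. The share for miRNAs of unlike seed was not counted, and near-identical members can exchange reads. The count therefore does not show that members of a family move together. A seed sum does not depend on how reads were divided among its members, and miRNAs with no matched sequence are not in it. By position, 25 clusters of hairpins within 10000 bases on 1 strand held measured members of a single locus. In 9 all members were above 0 and in 4 all below (7 and 5 with TMM factors).

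**Figure D4:**
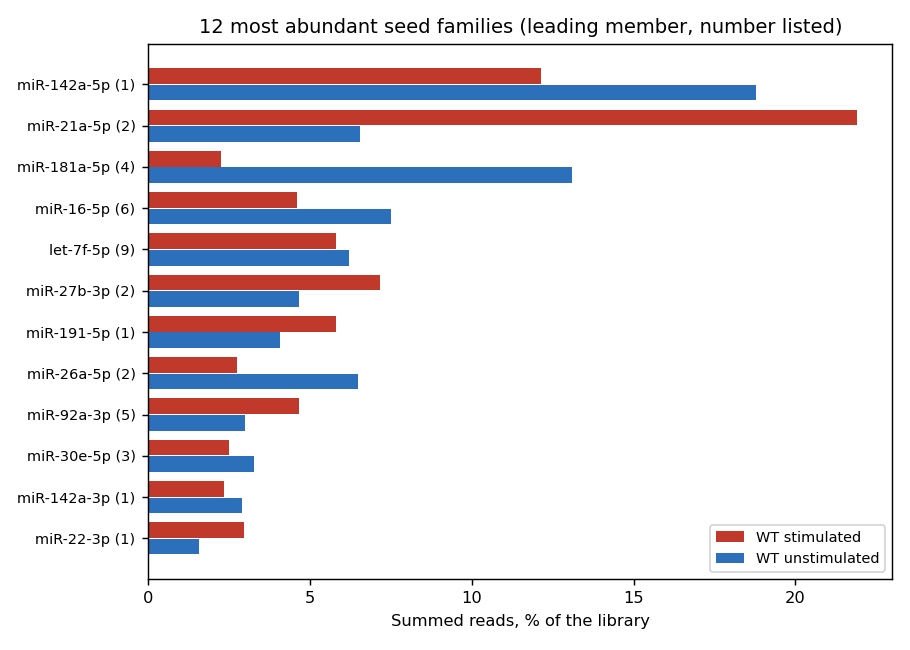
Summed reads of the 12 most abundant seed families as a percentage of the library, red for WT stimulated and blue for WT unstimulated cells, labelled by the leading member and the number of listed members. The bar of the miR-181a-5p family stands for 22409 CPM in stimulated and 130825 CPM in unstimulated cells, and that of the miR-21a-5p family for 219041 CPM in stimulated and 65609.7 CPM in unstimulated cells.

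The arms of a hairpin come from 1 precursor, so the ratio between them does not depend on the scaling. Of 91 hairpins with both arms averaging 10 CPM or more, the odds of 5p over 3p were at least 2-fold higher in stimulated cells in 24 (26.4%) and at least 2-fold lower in 11 (12.1%), with intervals of the shares that did not overlap. Without the miR-297, miR-466, miR-467 and miR-669 families, whose copies share sequence, these were 16 and 11 of 78 hairpins. The level was a mean over the pair, so a rare arm could pass it through 1 library. In 18 hairpins an arm was under 10 CPM in unstimulated cells only, and in 4 in stimulated cells only. Of the 69 hairpins with both arms at 10 CPM or more in each library, 17 moved toward 5p and 7 toward 3p. Whether less abundant arms differ from more abundant arms in their ratios therefore cannot be read from these counts.

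Toward the 3p arm moved miR-15b, in an intron of Smc4, whose 5p arm took 79.6% (79.2 to 80.0%) in stimulated and 93.8% (93.6 to 94.0%) in unstimulated cells of the hairpin's reads. miR-15b-5p had a log2 ratio of 0.01 by library sums (-0.59 with TMM factors), while miR-15b-3p was higher with both scalings (1.97). The 5p arm of miR-345 took 47.4% (46.1 to 48.7%) in stimulated and 73.6% (70.8 to 76.2%) in unstimulated cells, so that its arms were close to even in stimulated cells only. The 5p arm of miR-155 took 98.2% in stimulated and 99.3% in unstimulated cells, with odds 2.67-fold apart.

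Rare partner arms of abundant guides were among them. miR-182-3p had 332 reads in stimulated and 5 reads in unstimulated cells, and miR-191-3p had 458 reads in stimulated and 112 reads in unstimulated cells, beside guide arms with over 99% of the hairpin's reads in either library. These rare arms stood at 0.324 CPM (miR-182-3p) and 7.26 CPM (miR-191-3p) in unstimulated cells. They passed the 10 CPM level through the stimulated library only, which favours a gain of share. miR-223, known from myeloid cells, differed from these in that its rarer arm lost share. Its 5p arm took 1.28% (0.704 to 2.15%) in stimulated and 4.23% (3.79 to 4.72%) in unstimulated cells. That arm, at 1.07 CPM in stimulated and 20.5 CPM in unstimulated cells, passed the level through the unstimulated library only, which favours a loss.

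Toward the 5p arm moved miR-27b, whose 5p arm is the rare one. It took 0.273% (0.262 to 0.284%) in stimulated and 0.0578% (0.0523 to 0.0637%) in unstimulated cells, 4.73-fold apart in odds. The 5p arm of miR-25 took 1.16% in stimulated and 0.281% in unstimulated cells. miR-210-5p had 1230 reads in stimulated and 9 reads in unstimulated cells, and its log2 ratio of 7.33 was above the 5.69 of miR-210-3p. At 0.583 CPM in unstimulated cells, miR-210-5p also passed the level through the stimulated library only. In miR-150 the rare arm was the one lowered more, miR-150-3p at -2.96 and miR-150-5p at -1.39.

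**Figure D5:**
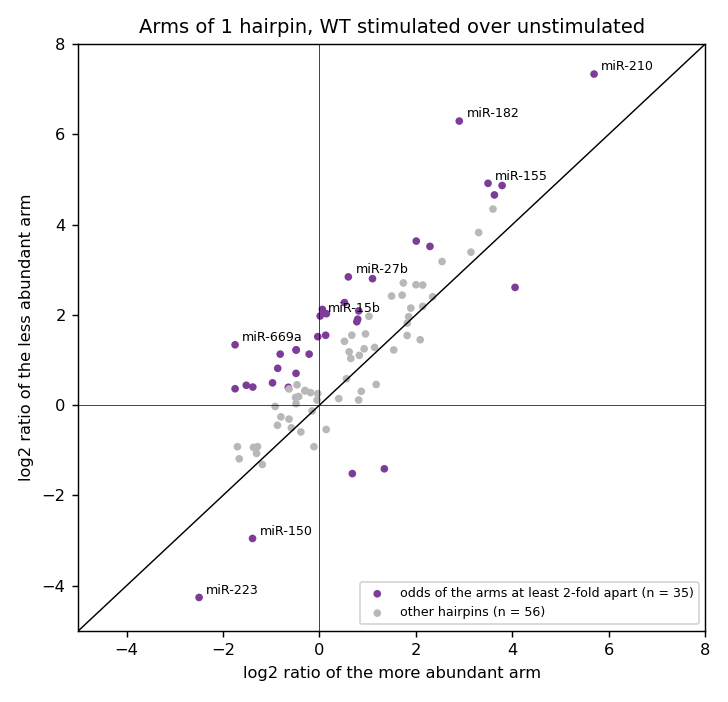
Log2 ratio of stimulated over unstimulated WT cells of the less abundant arm (y axis) against that of the more abundant arm (x axis), each point 1 of 91 hairpins. Purple marks the 35 hairpins whose arm odds differ at least 2-fold. The diagonal marks equal ratios, and miR-15b lies at 0.01 for its more abundant and 1.97 for its less abundant arm.

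Markers of other cells were present in both libraries and differed between them. Of all 332 miRNAs at 10 CPM or more, 207 had ratios above 0 by library sums and 158 with TMM factors. The myeloid list summed to 84.1 CPM in stimulated and 499.7 CPM in unstimulated cells, and all 4 members, the arms of miR-223 and miR-511, were lower in CPM. Only 1 averaged 50 CPM or more and was lower with both scalings, miR-223-3p at 82.3 CPM in stimulated and 464 CPM in unstimulated cells. The erythroid list summed to 390.0 CPM in stimulated and 1408 CPM in unstimulated cells, all 5 members being lower in CPM. Only 2, miR-486a-5p and miR-486b-5p, averaged 50 CPM or more and were lower with both scalings. Within it, miR-451a had 319 reads in stimulated and 1106 reads in unstimulated cells. miR-486a-5p, at 182 CPM in stimulated and 662 CPM in unstimulated cells, and miR-486b-5p have nearly equal counts and are not separate measurements.

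The stromal list summed to 101 CPM in stimulated and 307 CPM in unstimulated cells, nearly all of it miR-10b-5p and miR-143-3p, with miR-214-3p at 0 reads in stimulated cells. Of the stromal members only miR-199b-5p was higher in CPM in stimulated cells, with 6 reads in stimulated and 3 reads in unstimulated cells. The epithelial list summed to 562 CPM in stimulated and 1082 CPM in unstimulated cells, and 1 of 3 members averaging 50 CPM or more was lower with both scalings, miR-203-3p at 94.3 CPM in stimulated and 435 CPM in unstimulated cells. Its most abundant member miR-141-3p stood at 319 CPM in stimulated and 458 CPM in unstimulated cells (log2 -0.52), and miR-200b-3p at 62.9 CPM in stimulated and 75.2 CPM in unstimulated cells (-0.26). miR-200c-3p had the only ratio above 0, at 38.5 CPM in stimulated and 20.1 CPM in unstimulated cells (0.94), and miR-205-5p had 0 reads in stimulated and 5 reads in unstimulated cells. The endothelial and megakaryocyte list went the other way and summed to 334 CPM in stimulated and 119 CPM in unstimulated cells, with a median of 1.38 (0.77 with TMM factors). Liver and muscle markers summed to 0.306 CPM in stimulated and 0.648 CPM in unstimulated cells. The part of such cells in the ratios was not tested.

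In the Cbl-b-/- pair, which shares no library with the WT pair, 109 miRNAs called in WT cells by library sums were compared, and 0 had a ratio of the other sign. The 34 hairpins past the arm limit in WT with a value there also moved the same way. Both sets were picked for differences of at least 2-fold in WT cells, which makes a shared sign likely. The share over all miRNAs or all hairpins was not counted, so these counts do not show that the genotypes respond alike. miR-210-3p had log2 ratios of 6.00 in Cbl-b-/- and 5.69 in WT cells, and miR-181a-5p -2.64 in Cbl-b-/- and -2.73 in WT cells. The values were further apart for miR-486a-5p, at -0.92 in Cbl-b-/- and -1.87 in WT cells, and miR-451a, at -0.11 in Cbl-b-/- and -1.55 in WT cells. Whether the genotypes differ in any of these was not tested, with 1 library in each group.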

How the data were processed

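Total RNA of CD4+ T cells was made into small RNA libraries with an NEB kit, per the labels' protocols, 1 library per group. The authors deposited 1 table of known miRNAs for each state. Per the file headers, each holds a raw read count and a normalized read count (a score, not used here) per library. The tables also hold a deposited p-value, linear fold ratio and log2 ratio of WT over Cbl-b-/-, which were not used. The submitters' processing notes name cutadapt 1.7.1 and the build GRCm38.p5. The aligner and the counter were not given in the sources used here. In the deposited counts, 25 miRNAs with 20 reads or more fall into 12 groups of equal values in every library, so members of such a group are not separate measurements.

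The WT counts were joined by miRNA name and scaled by library sums or by TMM factors (edgeR 4.0.16, R 4.3.3). With 1 library a side there are no residual degrees of freedom, and no test was run. The level minimum always used library sums. A miRNA with 0 reads was set to 3 counts (0.229 CPM in stimulated and 0.194 CPM in unstimulated cells) to give a fold. That fold leaves out the counting error of the other library. PCR copies are not independent molecules. Scaling and calls were tested on simulated data. Positions are from RefSeq (GRCm38.p6) and host genes from GENCODE M21.

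The comparison and the 22 lists were chosen with earlier results of these data known. Named miRNAs were the 15 highest and 15 lowest past both scalings, the 5 most abundant of each library, the 4 most abundant of each list, and the leading seed families, hairpins and miRNAs absent from 1 library. Other list, cluster, family and hairpin members were named after their values were seen. Alternatives were DESeq2 1.42.0 size factors, sums without the most abundant miRNAs, other minimums (10 CPM, 200 CPM or none), other fold limits (1.5 or 4) and equal miRNAs kept once. Leaving out the repeat families of hairpins, and an arm minimum in each library, were added after seeing the data.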

Additional observations from a re-analysis of the deposited data

How the results depend on the processing

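No paired analysis was possible because each group holds 1 library. The number of lower miRNAs, 31 by library sums, was 66 under TMM scaling and 63 under DESeq2 scaling, while that of higher miRNAs, 78, stayed within 1.5 times under each scaling. A minimum of 10 CPM gave 130 higher and 49 lower, 200 CPM 37 and 20, and no minimum 299 and 108, since the number of miRNAs considered changes. A fold limit of 1.5 gave 52 lower, and a limit of 4 gave 39 higher and 10 lower. Of lists with at least 3 measured members, 6 had a median of at least 1 and 4 of at most -1. With TMM factors these were 3 and 8, and 7 were at most -1 with DESeq2 size factors. Lower seed families numbered 29 under TMM and 28 under DESeq2 scaling, in place of 17. With both arms at 50 CPM, 10 hairpins moved toward 5p and 4 toward 3p, and with both arms at 10 CPM in each library 17 and 7, where fewer hairpins enter. With identical miRNAs kept once, the 10 most abundant held 64.9% in stimulated and 68.4% in unstimulated cells. Among named miRNAs past the rule by sums, miR-19b-3p, miR-23b-3p, miR-27a-3p, miR-29a-5p and miR-130b-3p did not pass with TMM or DESeq2 factors, and miR-126a-5p did not with TMM factors. Of 116 named miRNAs, 7 had the other sign with TMM factors (miR-15b-5p, miR-24-3p, miR-25-3p, miR-27b-3p, miR-29b-3p, miR-93-5p and miR-191-5p), and 0 of these were past the rule by library sums. The spread between mice or between preparations cannot be had from 1 library a group.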

Other observations

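Stimulated cells held reads of 162 miRNAs with 0 reads in unstimulated cells, and the reverse held for 70. Most were rare. miR-147-5p, the partner arm of miR-147-3p in an exon of AA467197, had 70 reads in stimulated and 0 reads in unstimulated cells. With the 0 set to 3 counts it was 27.5-fold higher in stimulated cells, and its log2 interval began at 4.45. miR-449a-3p had 40 reads in stimulated and 0 reads in unstimulated cells (15.7-fold higher in the same way, log2 interval from 3.61). In the other direction miR-1247-3p had 0 reads in stimulated and 63 reads in unstimulated cells. With the 0 set to 3 counts it was 17.8-fold lower in stimulated cells, and its log2 interval ended at -3.81. miR-181b-2-3p, an arm of the miR-181 family, had 0 reads in stimulated and 19 reads in unstimulated cells.

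Among miRNAs of repeated sequence, the arms of the miR-669a, miR-466h and miR-297a hairpins went opposite ways. miR-669a-5p stood at 314 CPM in stimulated and 125 CPM in unstimulated cells (log2 1.34) and miR-669a-3p at 116 CPM in stimulated and 391 CPM in unstimulated cells (-1.75). The 5p arm of miR-669a took 73.0% in stimulated and 24.2% in unstimulated cells, that of miR-466h 82.4% in stimulated and 40.9% in unstimulated cells and that of miR-297a 74.6% in stimulated and 39.0% in unstimulated cells. Copies of these miRNAs share counts, so the hairpins are not separate measurements.

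Ratios varied with level. By library sums the median log2 ratio was 0.88 over 112 miRNAs at 10 to 50 CPM and 0.58 over 95 at 50 to 200 CPM. It was 0.00 over 59 at 200 to 1000 CPM, 0.41 over 47 at 1000 to 10000 CPM and -0.31 over 19 above that. With TMM factors these medians were 0.27, -0.02, -0.61, -0.20 and -0.92 in the same order. Levels here are means over the pair, so a miRNA rare in 1 library could enter a group through the other.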
